A study of Homo sapiens with 24 samples.

Results

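The genes described are 10 of the TGF-beta and activin pathway, chosen by name from the 57820 rows of a table of normalised counts. They are TGFB1, TGFB2, INHBA, TGFBR1, TGFBR2, SMAD2, SMAD3, SMAD7, SKIL and SMURF2. The rule takes them by symbol and sets no threshold on a measured value, but it was made with earlier results of these data known. All 10 were among the 17860 genes tested. Messenger RNA was sequenced from RBE and SNU1079, human cholangiocarcinoma cell lines that the labels describe as carrying mutant IDH1 and expressing SULT1A1, a sulfotransferase. Cells of each line were exposed for 6 or 16 h to YC-1, or to the solvent DMSO alone, giving 8 groups of 3 libraries, 24 in all. YC-1 is an indazole known as a stimulator of soluble guanylate cyclase. The labels state no dose. Exposure times follow the titles and the study design. A separate time label disagrees with them, since it gives 16 h for every DMSO and 6 h for every YC-1 library. With the times pooled, INHBA passed in neither line and TGFB1 missed the threshold in SNU1079. The design text calls the libraries of a group biological replicates. Each p-value rests on one spread per gene, estimated between replicates over all 8 groups together. Over the genes tested, the mean squared deviation of a library from its group mean was 0.074 to 0.157 in RBE and 0.109 to 0.347 in SNU1079. A common spread can therefore be too small for SNU1079 and too large for RBE. Each line is a single cell line, so differences between RBE and SNU1079 are differences between these lines and not between classes of tumour.

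TGF-beta and activin are secreted dimers of one ligand family. They bind a type II receptor, which activates a type I receptor kinase, and the kinase phosphorylates SMAD2 and SMAD3. These enter the nucleus with SMAD4 and act on target genes, among them genes for inhibitors that close a feedback loop. In epithelial cells the pathway is known for growth arrest and for epithelial-mesenchymal transition, and in bile duct cancer for its part in the dense stroma around the tumour.

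The transcripts of 4 genes were lower after YC-1 in both lines at both times, namely TGFBR2, SMAD3, SMAD7 and SMURF2. TGFB2 was lower in the same 4 comparisons, by less in RBE at 6 h than at 16 h. SKIL, which encodes a nuclear corepressor of SMADs, was higher in all 4. INHBA differed by line and time, SMAD2 was higher in SNU1079, TGFB1 was higher in SNU1079 at 16 h, and TGFBR1 passed the test in none. A gene was called changed at an adjusted p under 0.05 (limma, Benjamini-Hochberg over all genes tested), and every log2 fold change is on the scale of log2(normalised count + 1).

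In RBE, YC-1 changed 7 of the 10 genes at 6 h, with 2 higher and 5 lower, where 24% of all genes tested passed the same threshold. At 16 h in RBE 7 of the 10 changed, with 1 higher and 6 lower, against a background of 53.9%. In SNU1079 the count at 6 h was 7 of 10, with 2 higher and 5 lower, against 28.2% of all genes. At 16 h in SNU1079 it was 9 of 10, with 4 higher and 5 lower, against 54.5%. Over all genes in RBE, 11.6% were higher and 12.4% lower at 6 h, and 27.3% higher and 26.6% lower at 16 h. Over all genes in SNU1079, 14% were higher and 14.2% lower at 6 h, and 28.7% higher and 25.8% lower at 16 h. For RBE the median log2 fold change of the 10 genes was -0.32 at 6 h and -1.03 at 16 h, and for SNU1079 it was -0.48 and -0.55. The median over all genes lay between 0 and 0.06 in these comparisons.

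YC-1 and DMSO libraries did not overlap for 7 of the 10 genes in RBE at 6 h and for 8 at 16 h, where 48.1% and 69.2% of all genes were separate. In SNU1079 they did not overlap for 8 of the 10 genes at 6 h and for 9 at 16 h, against 40.3% and 51.3% of all genes.

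**Figure D1:**
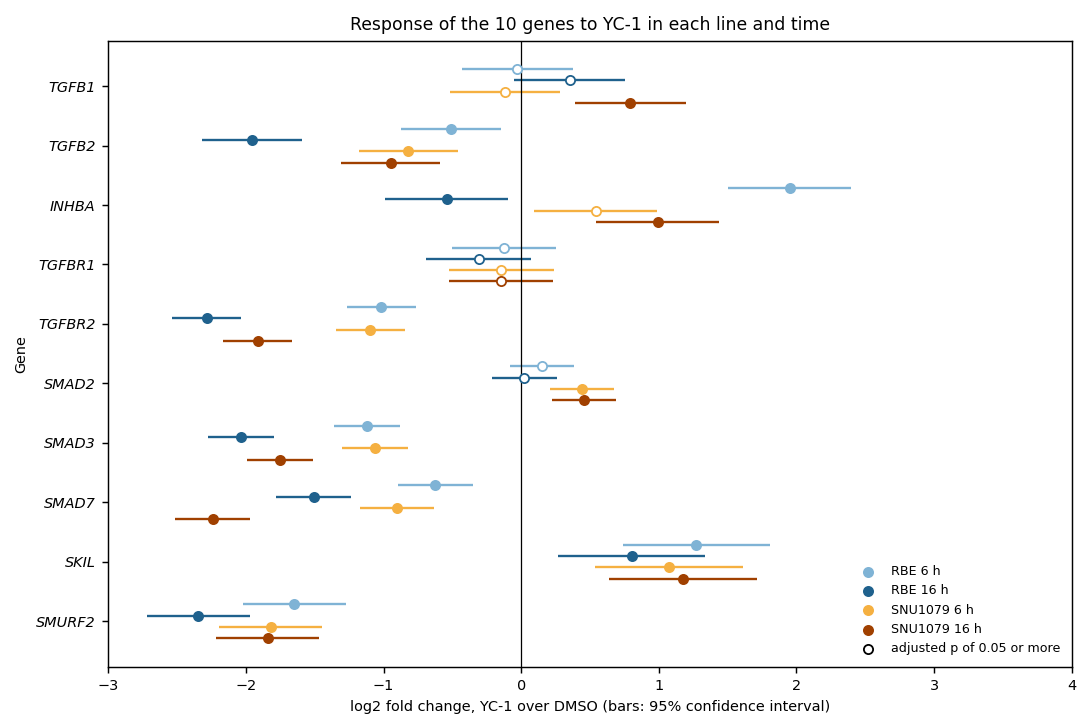
Log2 fold change of each gene for YC-1 over DMSO (horizontal axis) in both lines at both times, with 95% confidence intervals. Filled points passed the test at an adjusted p under 0.05. TGFBR2, SMAD3, SMAD7 and SMURF2 lie left of 0 in all 4 comparisons and SKIL right of 0, while INHBA runs from 1.95 in RBE at 6 h to -0.54 in RBE at 16 h.

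Normalised counts summed to between 19010000 and 27010000 per library, and raw read numbers are not known. Cholangiocyte keratins KRT19, KRT7, KRT8 and KRT18 were present in all 24 libraries, as were EPCAM and SOX9, while CDH1 was at 0 in 3. Of 6 hepatocyte markers, APOB was at 0 throughout and ALB was at most 10.4, but SERPINA1 was at 1134 to 2142 and FGB reached 101. Of 6 fibroblast markers, DCN was at 0 throughout, and COL1A2, COL3A1 and LUM were at most 17.1, 3.38 and 1.79. PDGFRB reached 115. COL1A1, which is also on the list of target genes used below, reached 3808 and was high in SNU1079. At 16 h the summed levels of hepatocyte and of leukocyte markers were higher with YC-1 in both lines. The fibroblast sum was lower with YC-1 in SNU1079 and overlapped with DMSO in RBE. Single genes such as COL1A1 and SERPINA1 make up most of a sum. The part of these sums in the changes of the 10 genes was not tested. In SNU1079 the fibroblast sum was 722 to 1719 with YC-1 and 2021 to 2910 with DMSO, and in RBE it was 82.2 to 95.2 with YC-1 and 60.6 to 115 with DMSO. The hepatocyte sum was 1553 to 2201 with YC-1 and 1169 to 1352 with DMSO in SNU1079, and 1916 to 2003 with YC-1 and 1186 to 1277 with DMSO in RBE. The sum of 5 leukocyte markers was 42.1 to 62.6 with YC-1 and 0.876 to 2.58 with DMSO in SNU1079, and 89.2 to 103 with YC-1 and 49.1 to 52.4 with DMSO in RBE. The sum of 7 cholangiocyte markers at 16 h was 118844 to 124844 with YC-1 and 73773 to 80493 with DMSO in RBE. In SNU1079 the cholangiocyte sums at 16 h overlapped, at 94669 to 148452 with YC-1 and 73397 to 97017 with DMSO. Of the leukocyte markers, CD14 reached 62.6 and LYZ 66.7, while CD3E of T cells was at 0 in 22 of the 24 libraries. In SNU1079, 3 libraries stood apart from their group: YC-1 replicate 1 at 6 h and DMSO replicate 1 at 16 h by their distance from the other replicates, and YC-1 replicate 2 at 16 h by its mitochondrial share of 3.38%, against 18.1% and 22.1% in the other YC-1 libraries and 6.02% to 8.50% in DMSO. The corresponding share in RBE at 16 h was 15.4% to 17.0% with YC-1 and 7.67% to 8.18% with DMSO. Leaving out the 3 SNU1079 libraries that stood apart was not among the planned fits. YC-1 replicate 3 of SNU1079 at 16 h stayed in. Its mean squared deviation from the group mean was 0.322, beside 0.321 for replicate 2. Scaling every library to the same sum moved the median log2 fold change of all genes by -0.33 in RBE and -0.36 in SNU1079 at 16 h. Calls over all genes at 16 h then split into 2908 higher and 6475 lower in RBE, in place of 4867 and 4754. In SNU1079 they split into 3068 higher and 6599 lower, in place of 5130 and 4611.

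**Figure D2:**
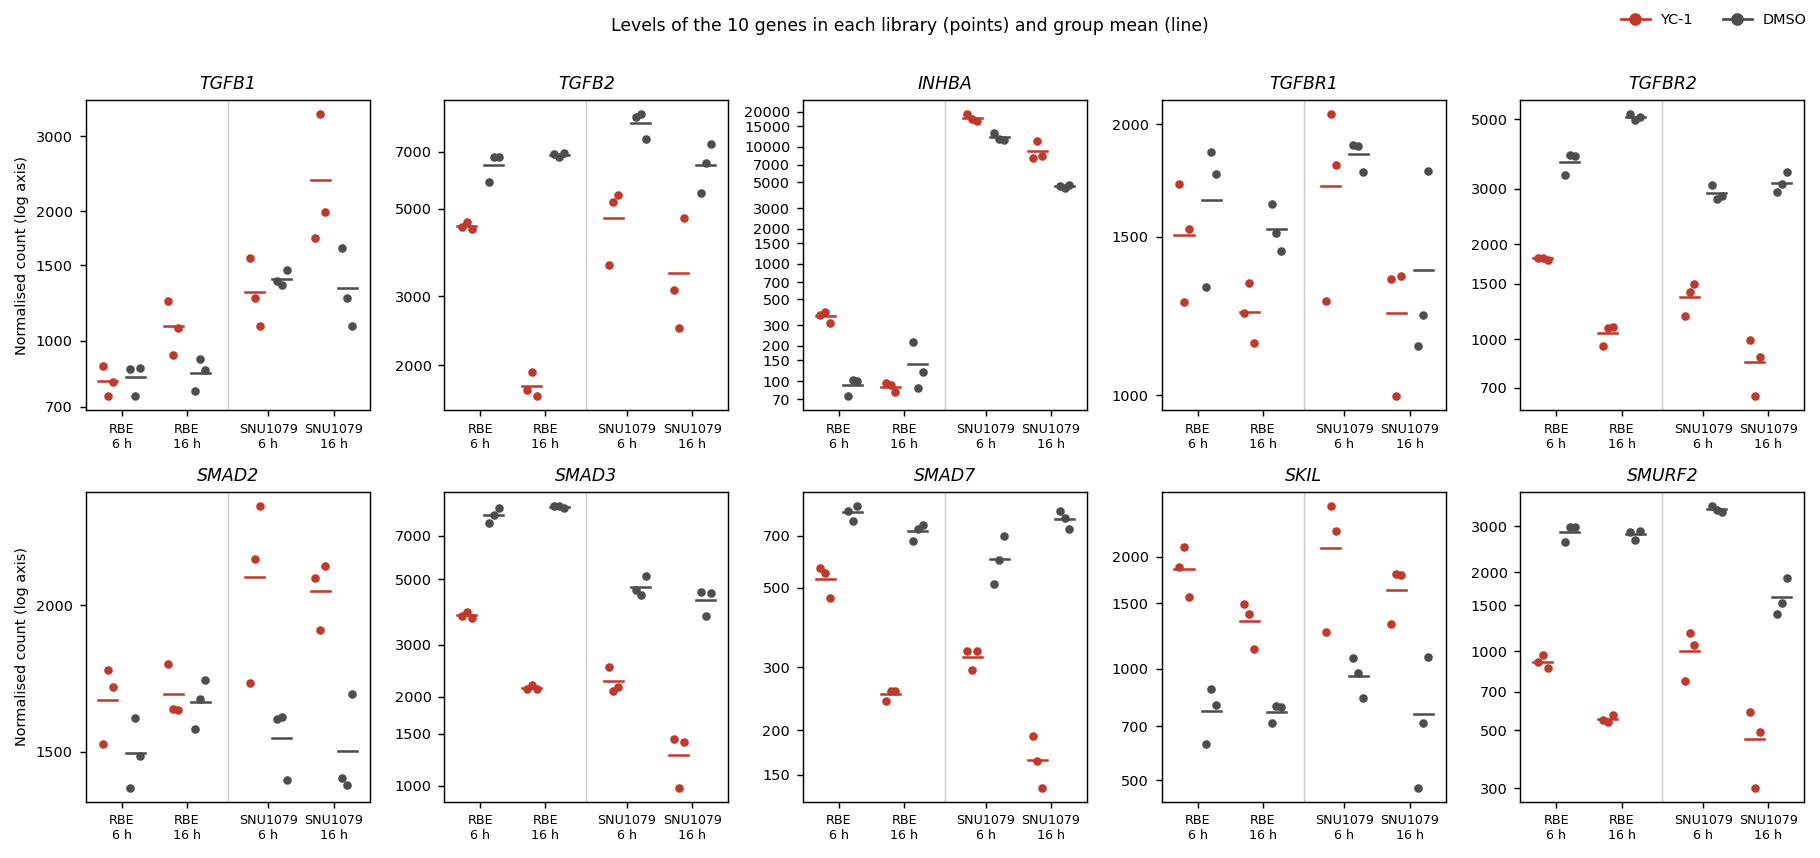
Normalised count (log axis) of each of the 10 genes in every library, as points, with the mean of each group of 3 as a line. YC-1 and DMSO do not overlap for TGFBR2, SMAD3, SMAD7 and SMURF2 in any line or time, and INHBA lies at 74.2 to 387 in RBE and at 4419 to 18942 in SNU1079.

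TGFB1 encodes the prototype ligand, which is secreted in a latent complex (ENSG00000105329, GRCh38 chromosome 19, 41301587 to 41353911, minus strand). In RBE it stood at 871, 744 and 802 normalised counts after 6 h of YC-1, against 860, 742 and 861 with DMSO. The values at 16 h were 1239, 927 and 1068 with YC-1, against 763, 905 and 853 with DMSO. The groups overlapped at 6 h and were separate at 16 h. Neither difference passed the test, at log2 fold changes of -0.03 ± 0.19 (SE) and 0.35 ± 0.19 (adjusted p = 0.95 and 0.13). Without SNU1079 YC-1 replicate 2 of 16 h, which enters the common estimate of spread, the 16 h difference in RBE passed (adjusted p = 0.048), and without all 3 libraries that stood apart its adjusted p was 0.0091. It was 0.011 with the 12 RBE libraries fitted alone.

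In SNU1079 TGFB1 was at 1554, 1255 and 1080 after 6 h of YC-1, against 1376, 1345 and 1458 with DMSO, a log2 fold change of -0.12 ± 0.19 that did not pass (adjusted p = 0.71). By 16 h the libraries stood at 1733, 3370 and 1990 with YC-1, against 1643, 1255 and 1084 with DMSO. All 3 YC-1 libraries lay above all 3 DMSO libraries, and TGFB1 rose by 0.79 ± 0.19 on the log2 scale (adjusted p = 0.0016). The library at 3370 is the one with the low mitochondrial share. The log2 fold change was 0.51 when it was left out, and 0.67 (adjusted p = 3.3e-04) without all 3 libraries that stood apart. Scaled to equal sums, it was 0.43 and missed the threshold (adjusted p = 0.10). The annotated exons of TGFB1 share 6.6% of their length with HNRNPUL1 on the opposite strand, and whether counting used strand is not given in the sources used here.

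TGFB2 encodes a second ligand of the family (ENSG00000092969, chromosome 1, 218346235 to 218444619, plus strand). In RBE it was at 4508, 4628 and 4450 after 6 h of YC-1, against 5841, 6767 and 6771 with DMSO. After 16 h of YC-1 the values were 1732, 1921 and 1668, against 6917, 6785 and 6928 with DMSO. The groups were separate at both times and further apart at 16 h, where the log2 fold change was -1.96 ± 0.17 (adjusted p = 6.6e-09). At 6 h it was -0.51 ± 0.17 (adjusted p = 0.036). This 6 h call did not survive leaving out YC-1 replicate 1, 2 or 3 (adjusted p = 0.085, 0.073 and 0.090) or DMSO replicate 2 or 3 (0.11 each).

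In SNU1079 TGFB2 was at 3596, 5207 and 5441 after 6 h of YC-1, against 8559, 8709 and 7516 with DMSO. After 16 h it was at 3114, 2483 and 4735 with YC-1, against 5478, 6560 and 7336 with DMSO. TGFB2 fell in both, at log2 fold changes of -0.82 ± 0.17 and -0.95 ± 0.17 (adjusted p = 0.0011 and 9.5e-05), and no YC-1 library reached the lowest DMSO library. The gene shares 26.6% of its exon length with TGFB2-OT1 on the same strand, so reads of the 2 annotations may not be separable.

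INHBA encodes the beta A subunit of activin A (ENSG00000122641, chromosome 7, 41667168 to 41705834, minus strand). In RBE it was at 369, 387 and 315 after 6 h of YC-1, against 74.2, 102 and 101 with DMSO. It rose by 1.95 ± 0.21 on the log2 scale (adjusted p = 7.4e-07), with every YC-1 library above every DMSO library. The values at 16 h were 96.0, 92.3 and 80.2 with YC-1, against 215, 86.4 and 120 with DMSO. These groups overlapped, and the log2 fold change of -0.54 ± 0.21 (adjusted p = 0.037) rested on single libraries. It was -0.19 (adjusted p = 0.38) without DMSO replicate 1, the library at 215, and did not pass without YC-1 replicate 2 or 3 (adjusted p = 0.062 and 0.12).

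The same gene was far higher in SNU1079. It was at 18942, 17396 and 16571 after 6 h of YC-1, against 13185, 11711 and 11484 with DMSO. By 16 h the libraries stood at 8006, 11306 and 8427 with YC-1, against 4658, 4419 and 4722 with DMSO. YC-1 libraries lay above DMSO libraries at both times. At 16 h INHBA rose by 0.99 ± 0.21 on the log2 scale (adjusted p = 5.2e-04). At 6 h the log2 fold change of 0.54 ± 0.21 missed the threshold (adjusted p = 0.064). It passed when the spread was estimated without RBE DMSO replicate 1 or 2 of 16 h (adjusted p = 0.0094 and 0.025), libraries that are not part of that comparison.

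Divided by the length of the merged exons, the ligand transcripts could be set beside each other. In RBE the level of TGFB2 per kb was the highest of the 10 genes in every group, at 879 ± 17.6 after 6 h of YC-1 and 1254 ± 104 with DMSO (SD, n = 3 each), while INHBA was the lowest of the 10 in every RBE group. After 16 h TGFB2 in RBE was at 344 ± 25.5 per kb with YC-1 and 1335 ± 15.5 with DMSO. In RBE after 16 h of YC-1 that level stood next to TGFB1 at 333 ± 48.2 per kb, a gap smaller than the SD of TGFB1. In SNU1079 INHBA had the highest level per kb with YC-1, at 2124 ± 145 after 6 h and 1114 ± 216 after 16 h. With DMSO in SNU1079, TGFB2 was the highest at both times, at 1604 ± 126 and 1254 ± 181 per kb.

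**Figure D3:**
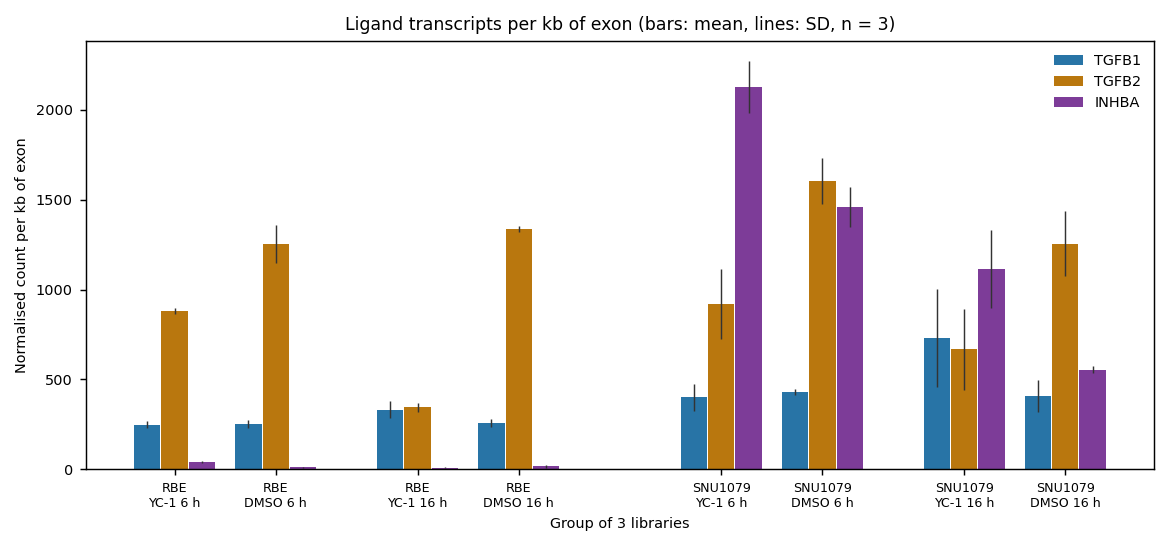
Normalised count per kb of exon for the ligand genes TGFB1, TGFB2 and INHBA in the 8 groups, as means with SD (n = 3). INHBA is close to 0 in RBE and exceeds TGFB2 in SNU1079 with YC-1, at 2124 against 922 per kb after 6 h.

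TGFBR1 encodes the type I receptor kinase (ENSG00000106799, chromosome 9, 99104038 to 99154192, plus strand). In RBE at 16 h it was at 1233, 1334 and 1142 with YC-1, against 1630, 1516 and 1448 with DMSO. In SNU1079 at 16 h it was at 1345, 998 and 1355 with YC-1, against 1133, 1229 and 1774 with DMSO. At 6 h it averaged 1505 ± 223 with YC-1 and 1648 ± 288 with DMSO in RBE, and 1708 ± 397 with YC-1 and 1851 ± 72.2 with DMSO in SNU1079 (SD, n = 3 each). The groups overlapped except in RBE at 16 h. At 6 h its log2 fold change was -0.13 in RBE and -0.14 in SNU1079 (adjusted p = 0.69 and 0.62), and at 16 h -0.31 for RBE and -0.15 for SNU1079 (adjusted p = 0.16 and 0.52), each with an SE of 0.18. None passed. At 16 h the 95% confidence intervals reached down to -0.69 in RBE and -0.53 in SNU1079. With libraries scaled to equal sums, which moves all genes down at 16 h, TGFBR1 passed as lower in both lines (-0.64 and -0.51, adjusted p = 0.0032 and 0.015). In RBE at 16 h it also passed when the 12 libraries of that line, or the 6 compared, were fitted alone (adjusted p = 0.043 and 0.0071).

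TGFBR2 encodes the type II receptor, the subunit that binds TGF-beta itself (ENSG00000163513, chromosome 3, 30606502 to 30694142, plus strand). In RBE it was at 1816, 1814 and 1784 after 6 h of YC-1, against 3313, 3852 and 3806 with DMSO. After 16 h of YC-1 the values were 950, 1087 and 1093, against 5174, 4973 and 5080 with DMSO. Every YC-1 library lay far below every DMSO library. The log2 fold changes were -1.01 ± 0.12 at 6 h and -2.28 ± 0.12 at 16 h (adjusted p = 2.2e-06 and 4.0e-12).

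In SNU1079 TGFBR2 was at 1186, 1413 and 1498 after 6 h of YC-1, against 3091, 2786 and 2851 with DMSO. After 16 h it was at 998, 659 and 875 with YC-1, against 2922, 3116 and 3388 with DMSO. No YC-1 library came near a DMSO library at either time. The log2 fold changes were -1.10 ± 0.12 and -1.91 ± 0.12 (adjusted p = 6.8e-07 and 5.8e-11).

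SMAD2 and SMAD3 encode the receptor-regulated SMADs that carry TGF-beta and activin signals, and their transcripts behaved differently. SMAD2 (ENSG00000175387, chromosome 18, 47808957 to 47931146, minus strand) was at 1522, 1761 and 1702 in RBE after 6 h of YC-1, against 1398, 1603 and 1487 with DMSO. At 16 h in RBE it was at 1781, 1632 and 1629 with YC-1, against 1569, 1662 and 1727 with DMSO. The groups overlapped at both times, with log2 fold changes of 0.15 ± 0.11 and 0.02 ± 0.11 (adjusted p = 0.39 and 0.88). The 16 h value turned to -0.30 and passed as lower when libraries were scaled to equal sums (adjusted p = 0.021), a scaling whose median shift there was -0.33.

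In SNU1079 SMAD2 was at 1718, 2191 and 2431 after 6 h of YC-1, against 1600, 1605 and 1420 with DMSO. The values at 16 h were 2109, 1905 and 2160 with YC-1, against 1425, 1404 and 1681 with DMSO. YC-1 libraries lay above DMSO libraries at both times, and SMAD2 rose by 0.44 ± 0.11 and 0.46 ± 0.11 on the log2 scale (adjusted p = 0.0052 and 0.0018). At 16 h the rise was 0.09 (adjusted p = 0.48) with libraries scaled to equal sums. At 6 h it missed the threshold when the 6 libraries compared were fitted alone (adjusted p = 0.072).

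SMAD3 (ENSG00000166949, chromosome 15, 67063763 to 67195195, plus strand) was at 3752, 3885 and 3692 in RBE after 6 h of YC-1, against 7762, 8226 and 8700 with DMSO. After 16 h in RBE it was at 2130, 2187 and 2118 with YC-1, against 8856, 8823 and 8690 with DMSO. The groups were widely separate, with log2 fold changes of -1.12 ± 0.12 and -2.03 ± 0.12 (adjusted p = 3.6e-07 and 1.1e-11).

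In SNU1079 SMAD3 was at 2514, 2093 and 2163 after 6 h of YC-1, against 4599, 4414 and 5115 with DMSO. By 16 h the libraries stood at 1440, 986 and 1402 with YC-1, against 4512, 3740 and 4500 with DMSO. SMAD3 fell at both times, with log2 fold changes of -1.06 ± 0.12 and -1.75 ± 0.12 (adjusted p = 5.9e-07 and 1.2e-10). In bulk RNA of this kind, fewer cells of a type and less RNA per cell cannot be told apart.

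SMAD7 encodes the inhibitory SMAD of the TGF-beta arm, a direct feedback target that recruits ubiquitin ligases to the receptor (ENSG00000101665, chromosome 18, 48919853 to 48952052, minus strand). In RBE it was at 567, 552 and 468 after 6 h of YC-1, against 821, 769 and 848 with DMSO. After 16 h of YC-1 the values were 241, 257 and 258, against 678, 731 and 749 with DMSO. No library of one group reached the other, and the log2 fold changes were -0.62 ± 0.13 and -1.51 ± 0.13 (adjusted p = 0.0011 and 4.6e-09).

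In SNU1079 SMAD7 was at 332, 294 and 334 after 6 h of YC-1, against 511, 599 and 699 with DMSO. After 16 h it was at 193, 164 and 138 with YC-1, against 819, 782 and 730 with DMSO. The 16 h fold change of SMAD7 was the lowest of the 10 genes in SNU1079, at -2.24 ± 0.13 on the log2 scale (adjusted p = 1.8e-11). At 6 h it was -0.90 ± 0.13 (adjusted p = 1.9e-05).

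SMURF2 encodes a HECT ubiquitin ligase that SMAD7 brings to the receptor complex (ENSG00000108854, chromosome 17, 64542295 to 64662068, minus strand). In RBE it was at 909, 965 and 860 after 6 h of YC-1, against 2622, 2994 and 2973 with DMSO. The values at 16 h were 546, 535 and 570 with YC-1, against 2865, 2658 and 2886 with DMSO. The log2 fold change at 6 h, -1.65 ± 0.18 (adjusted p = 6.8e-07), was the lowest of the 10 genes in RBE at that time. At 16 h it was -2.35 ± 0.18 (adjusted p = 8.0e-10).

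In SNU1079 SMURF2 was at 767, 1178 and 1059 after 6 h of YC-1, against 3592, 3452 and 3405 with DMSO. By 16 h the libraries stood at 588, 301 and 492 with YC-1, against 1383, 1524 and 1909 with DMSO. It fell at both times, with log2 fold changes of -1.82 ± 0.18 and -1.84 ± 0.18 (adjusted p = 1.5e-07 and 2.9e-08), and here the DMSO level itself was lower at 16 h than at 6 h.

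SKIL encodes SnoN, a nuclear protein that binds SMAD complexes and represses their target genes (ENSG00000136603, chromosome 3, 170357678 to 170396835, plus strand). In RBE it was at 1876, 2121 and 1559 after 6 h of YC-1, against 625, 883 and 796 with DMSO. After 16 h of YC-1 the values were 1494, 1405 and 1129, against 713, 794 and 787 with DMSO. The groups were separate, and SKIL rose by 1.27 ± 0.26 and 0.80 ± 0.26 on the log2 scale (adjusted p = 8.5e-04 and 0.012). At 16 h the rise was 0.48 with libraries scaled to equal sums, which missed the threshold (adjusted p = 0.12).

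In SNU1079 SKIL was at 1253, 2741 and 2346 after 6 h of YC-1, against 1066, 971 and 834 with DMSO. After 16 h it was at 1319, 1791 and 1784 with YC-1, against 478, 711 and 1073 with DMSO. It rose by 1.07 ± 0.26 and 1.18 ± 0.26 on the log2 scale (adjusted p = 0.0032 and 6.0e-04). The YC-1 library at 1253 and the DMSO library at 478 are both among those that stood apart. Without the 3 libraries the log2 fold changes were 1.41 and 0.81, and both passed.

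Promoter sequence is shown for SKIL, which rose in all 4 comparisons, and for SMURF2 and TGFBR2, which fell in all 4. TGFB2, SMAD3 and SMAD7 also fell in all 4 and are not shown. The TGFBR2 window was picked because it holds an AP-1 match, so that match is no result. Each run covers 180 bases before and 20 bases after a RefSeq transcript start (GRCh38.p14), 5′ to 3′ on the strand of the gene, at chr3:170357535-170357734 (plus strand) for SKIL, chr17:64662288-64662487 (minus strand) for SMURF2 and chr3:30606421-30606620 (plus strand) for TGFBR2. Capitals mark the one motif match in each, which is a cyclic AMP response element in SKIL, the SMAD-binding letters CAGACA in SMURF2 and an AP-1 site in TGFBR2.
SKIL promoter: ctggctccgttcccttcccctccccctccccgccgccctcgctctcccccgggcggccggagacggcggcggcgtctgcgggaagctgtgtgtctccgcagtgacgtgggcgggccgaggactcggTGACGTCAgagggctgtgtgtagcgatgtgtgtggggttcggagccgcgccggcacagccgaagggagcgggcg
SMURF2 promoter: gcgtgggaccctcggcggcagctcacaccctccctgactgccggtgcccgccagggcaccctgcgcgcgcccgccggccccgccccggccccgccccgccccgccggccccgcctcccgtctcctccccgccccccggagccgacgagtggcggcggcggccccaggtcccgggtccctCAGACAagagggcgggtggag
TGFBR2 promoter: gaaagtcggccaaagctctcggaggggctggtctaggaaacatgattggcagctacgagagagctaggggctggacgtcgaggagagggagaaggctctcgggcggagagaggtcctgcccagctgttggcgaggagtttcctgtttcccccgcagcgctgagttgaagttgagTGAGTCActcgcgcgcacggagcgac

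The 4 motifs were searched on both strands of RefSeq promoter windows of 300 bases, with 25 windows for the 10 genes, all matched, and 35116 for all genes. The cyclic AMP response element TGACGTCA, 54 to 47 bases before the start of SKIL, was in 1.85% of all windows and in no window of the other genes of the set. The AP-1 letters TGANTCA were in 7.71% of all windows, and in 2 of the 25, one each of TGFBR2 and SMAD3. CAGACA was in 16.9% of all windows and in 6 of the 25, from 5 genes. These were TGFB2, INHBA, TGFBR1, SMAD3 and SMURF2, and TGFBR1 was called in no comparison of YC-1 with DMSO. The windows of SMAD7, which fell in all 4 comparisons, held none of the 4 motifs. The SMAD palindrome GTCTAGAC was in 0.202% of all windows and in none of the 25. No match in the windows of these genes overlapped a match of another motif. A match describes the letters of the window and shows neither binding nor a cause.

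Some of these genes differed in their YC-1 effect between the times. In RBE the effect at 16 h minus that at 6 h was negative and passed the test for 5 of the 10 genes, where 18.2% of all genes passed. INHBA had the difference of largest size, at -2.49 ± 0.30 on the log2 scale (adjusted p = 1.6e-05). TGFB2 followed at -1.45 ± 0.25, TGFBR2 at -1.27 ± 0.17, SMAD3 at -0.91 ± 0.16 and SMAD7 at -0.89 ± 0.18 (adjusted p = 3.9e-04, 4.7e-05, 6.5e-04 and 0.0022). For TGFB2, TGFBR2, SMAD3 and SMAD7 the fall in RBE was therefore deeper at 16 h than at 6 h. For TGFBR2 part of this difference lay in the DMSO groups of RBE, which averaged 3657 at 6 h and 5076 at 16 h. Its YC-1 groups averaged 1805 and 1043.

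In SNU1079 the difference between times passed for 4 of the 10 genes, against 17% of all genes. It was -1.34 ± 0.18 for SMAD7, -0.82 ± 0.17 for TGFBR2 and -0.69 ± 0.16 for SMAD3 (adjusted p = 6.3e-05, 0.0026 and 0.0069), and 0.91 ± 0.27 for TGFB1 (adjusted p = 0.026). When the 12 SNU1079 libraries were fitted alone, SMAD7 was the only one of the 4 to pass, and 5.5% of all genes passed. The TGFB1 difference did not pass without YC-1 replicate 2 or 3 of 6 h (adjusted p = 0.052 and 0.076), YC-1 replicate 2 of 16 h (0.064), DMSO replicate 3 of 6 h (0.058), or DMSO replicate 2 or 3 of 16 h (0.051 and 0.076). With equal sums it did not pass either, with or without mitochondrial genes in the sum (adjusted p = 0.18 and 0.075).

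The lines differed in few of these responses at 6 h and in more at 16 h. At 6 h the YC-1 effect in SNU1079 minus that in RBE passed for INHBA, 1 of the 10 genes, where 1.54% of all genes passed. It was -1.41 ± 0.30 on the log2 scale (adjusted p = 0.015), since INHBA rose by 1.95 in RBE. This call was lost without SNU1079 DMSO replicate 1 of 6 h (adjusted p = 0.051) or RBE DMSO replicate 1 of 6 h (adjusted p = 0.056), which leaves 0 of 10.

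At 16 h the difference between lines passed for 3 of the 10 genes, against 14.6% of all genes. INHBA differed by 1.53 ± 0.30 and TGFB2 by 1.01 ± 0.25, both with the higher effect in SNU1079, and SMAD7 differed by -0.73 ± 0.18, with the deeper fall in SNU1079 (adjusted p = 0.0018, 0.0081 and 0.0099). Without YC-1 replicate 2 of SNU1079 the count was 6 of 10, where 15.7% of all genes passed, and without all 3 libraries that stood apart it was 7 of 10, where 22.8% did. TGFBR2, SMAD3, SKIL, SMURF2, SMAD2, TGFB1 and TGFBR1 did not pass this test with all libraries, which does not show that their responses were alike.

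In DMSO alone the lines differed most in INHBA. It averaged 12126 ± 923 in SNU1079 and 92.3 ± 15.6 in RBE at 6 h (SD, n = 3 each), a 131-fold difference in the fit (log2 7.03 ± 0.21, adjusted p = 1.4e-16). At 16 h it averaged 4600 ± 160 in SNU1079 and 140.2 ± 66.6 in RBE, a 34.99-fold difference (log2 5.13 ± 0.21, adjusted p = 2.3e-14). TGFB1 was also higher in the SNU1079 cells, with log2 fold changes of 0.76 ± 0.19 (6 h) and 0.64 ± 0.19 (16 h) (adjusted p = 0.0020 and 0.0078). The 16 h difference of TGFB1 was 0.48 and did not pass without SNU1079 DMSO replicate 1 (adjusted p = 0.059).

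With DMSO, SMAD3 was lower in SNU1079, with log2 fold changes of -0.81 ± 0.12 (6 h) and -1.05 ± 0.12 (16 h), both called (adjusted p = 4.6e-06 and 1.2e-07). TGFBR2 differed by -0.69 ± 0.12 at 16 h (adjusted p = 5.1e-05) and by -0.33 ± 0.12 at 6 h (adjusted p = 0.026). The 6 h call for TGFBR2 was lost without SNU1079 DMSO replicate 2 or 3 (adjusted p = 0.080 and 0.067) or RBE DMSO replicate 2 or 3 (0.089 and 0.080). SMAD7 was lower in SNU1079 at 6 h (log2 -0.44 ± 0.13, adjusted p = 0.0067), a call lost without SNU1079 DMSO replicate 1 (adjusted p = 0.055), and SMURF2 was lower at 16 h (log2 -0.82 ± 0.18, adjusted p = 6.0e-04). In all, 5 of the 10 genes passed at each time, near the background of 56.4% of all genes at 6 h and 55.1% at 16 h. COL1A1, counted as a fibroblast marker, was also high in SNU1079, and its part in these line differences was not tested. Of the other fibroblast markers, DCN was at 0 in both lines. COL1A2, COL3A1 and LUM were at most 17.1, 3.38 and 1.79, and PDGFRB was at most 115.

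The DMSO groups also changed with time in SNU1079. INHBA averaged 4600 at 16 h and 12126 at 6 h, a log2 fold change of -1.40 ± 0.21 (adjusted p = 2.1e-04). SMURF2 averaged 1605 at 16 h and 3483 at 6 h, a log2 fold change of -1.13 ± 0.18 (adjusted p = 3.1e-04). These were 2 of the 10 genes, where 8.57% of all genes passed. In RBE none of the 10 passed between the DMSO times by limma, 2 had an unadjusted p under 0.05, and 0.0448% of all genes passed. Fitting the 12 RBE libraries alone called 1 of the 10 and 0.487% of all genes, and leaving out the 3 SNU1079 libraries that stood apart called 1 of the 10 and 0.342% of all genes.

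As a description, the genes whose levels followed each member most closely were taken over the 24 libraries, with the mean of each line subtracted, among 11285 genes. Pearson r was 0.99 for SMAD3 with MAP4 and DIP2B, 0.99 for TGFBR2 with KIAA1671 and RNGTT, and 0.99 for SMURF2 with MAT2A and DNMBP. SMAD7 was closest to TUBB (r = 0.99) and NUP85 (0.98), TGFB2 to NTN4 and RHOBTB1 (0.97 each), and SKIL to ZNF354B (0.96) and SDE2 (0.95). The genes without a common direction had looser neighbours. These were SNX16 (0.90) and ZNF37A (0.89) for SMAD2, PRPF38B (0.90) and NOC3L (0.89) for TGFBR1, and KLHL42 (0.87) and TAF5L (0.85) for INHBA. All points share the same libraries, and YC-1 and DMSO libraries form separate clusters, so that any gene with a large YC-1 effect gives a high r.

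The members span long stretches of genome, from 32.2 kb for SMAD7 to 131.4 kb for SMAD3 in GENCODE 29. Of 5531 tested genes with spans within this range, 34.1% were lower with YC-1 in RBE at 16 h and 30.2% in SNU1079 at 16 h, beside 26.8% and 25.9% of the 17258 tested genes with a known span. At 6 h the shares were 13.5% in RBE and 16.0% in SNU1079 within the range, beside 12.6% and 14.3% of all. TGFB2, TGFBR2, SMURF2 and SMAD3 span 87.6 to 131.4 kb and fell in all 4 comparisons, as did SMAD7 with the shortest span. TGFB1, TGFBR1, SKIL and INHBA span 38.7 to 52.3 kb, and of their values as reported only that of INHBA in RBE at 16 h was called lower. SMAD2 spans 122.2 kb and was called lower in none as reported. Span was not tested as a term of any fit.

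The rest of the pathway was described from 4 lists. Receptors and co-receptors, apart from TGFBR1 and TGFBR2, had 13 of 14 genes tested, and none was higher in any comparison. At 6 h 4 were lower in RBE and 3 in SNU1079, and at 16 h 10 in RBE and 8 in SNU1079. Over all genes tested, 12.4% in RBE and 14.2% in SNU1079 were lower at 6 h, and 26.6% in RBE and 25.8% in SNU1079 at 16 h. Their median log2 fold change was -0.60 in RBE and -0.45 in SNU1079 at 6 h, and -1.09 in RBE and -0.94 in SNU1079 at 16 h, where the median over all genes was 0.02 in RBE and 0.06 in SNU1079. BMPR1A, a type I receptor for bone morphogenetic proteins (BMPs), averaged 133 ± 95.03 with YC-1 and 1661 ± 140.2 with DMSO in RBE at 16 h, and 144 ± 104 with YC-1 and 1231 ± 273 with DMSO in SNU1079 (SD, n = 3 each). Its log2 fold changes were -3.88 ± 0.43 and -3.29 ± 0.43 (adjusted p = 1.4e-07 and 1.4e-06). TGFBR3, the co-receptor betaglycan, was low with YC-1 at 16 h. It averaged 16.0 ± 5.66 with YC-1 and 267 ± 18.8 with DMSO in RBE (SD, n = 3 each). In SNU1079 it averaged 9.02 ± 7.24 with YC-1 and 76.8 ± 20.1 with DMSO. Its log2 fold changes at 16 h were -4.03 ± 0.61 in RBE and -3.17 ± 0.61 in SNU1079 (adjusted p = 1.2e-05 and 1.8e-04). Those of ACVR1B, the type I receptor for activin, were -1.76 ± 0.15 and -0.94 ± 0.15 (adjusted p = 4.7e-09 and 2.5e-05), and those of BMPR2, the type II receptor for BMPs, were -1.67 ± 0.29 and -1.07 ± 0.29 (adjusted p = 4.3e-05 and 0.0033).

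Among other SMADs, SMAD cofactors and ubiquitin regulators, all 24 were tested. At 6 h 2 were higher and 10 lower in RBE, and 5 higher and 10 lower in SNU1079. At 16 h 5 were higher and 15 lower in RBE, beside 27.3% higher and 26.6% lower of all genes. In SNU1079 at 16 h 6 were higher and 12 lower, beside 28.7% and 25.8% of all genes, so the number higher was near that background. At 6 h the shares of all genes were 11.6% higher and 12.4% lower in RBE, and 14% higher and 14.2% lower in SNU1079. SMAD6, the inhibitory SMAD of the BMP arm, averaged 25.7 ± 5.76 with YC-1 and 328 ± 9.28 with DMSO in RBE at 16 h, and 23.8 ± 15.9 with YC-1 and 145 ± 2.76 with DMSO in SNU1079 (SD, n = 3 each). Its log2 fold changes were -3.65 ± 0.31 and -2.73 ± 0.31 (adjusted p = 3.0e-09 and 2.1e-07). ZFYVE9, which encodes the receptor anchor SARA, was lower at 16 h (log2 -2.41 ± 0.24 in RBE and -1.45 ± 0.24 in SNU1079). LEMD3, a nuclear membrane protein that binds SMADs, was lower likewise (-1.65 ± 0.24 and -1.84 ± 0.24), as was SMAD1, a SMAD of the BMP arm (-1.498 ± 0.24 and -1.17 ± 0.24). The highest adjusted p of these 6 values was 2.7e-04.

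Of 18 other ligands and latency proteins tested, from a list of 23, 2 were higher and 3 lower in RBE at 6 h, and 4 higher and 3 lower in SNU1079. At 16 h 3 were higher and 6 lower in RBE, and 9 higher and 4 lower in SNU1079. Over all genes at 6 h, 11.6% were higher and 12.4% lower in RBE, and 14% higher and 14.2% lower in SNU1079. The ligand counts in RBE at 6 h were near these shares. At 16 h 27.3% of all genes were higher and 26.6% lower in RBE, and 28.7% higher and 25.8% lower in SNU1079. The numbers lower at 16 h were near the background. FSTL3, a secreted binder of activin, averaged 4991 ± 111 with YC-1 and 835 ± 90.8 with DMSO in RBE at 16 h, and 10473 ± 1848 with YC-1 and 2601 ± 282 with DMSO in SNU1079 (SD, n = 3 each). It rose by 2.58 ± 0.14 and 2.001 ± 0.14 on the log2 scale (adjusted p = 4.3e-12 and 1.8e-10). NOG, a BMP antagonist, was lower (log2 -3.18 ± 0.31 in RBE and -2.63 ± 0.31 in SNU1079), and so was BMP6, a BMP ligand (-2.31 ± 0.18 and -2.24 ± 0.18, highest adjusted p = 4.1e-07). LTBP1, a latent TGF-beta binding protein, fell in RBE at 16 h (log2 -2.19 ± 0.61, adjusted p = 0.0046). In SNU1079 it was low, at 7.50 ± 8.06 with YC-1 and 13.9 ± 5.78 with DMSO, and its call there (adjusted p = 0.044) was lost without the 3 libraries that stood apart and, among others, without YC-1 replicate 3 of 16 h (log2 -0.32, adjusted p = 0.48).

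Of 27 genes often listed as targets of TGF-beta or BMP signalling, from a list of 28, 6 were higher and 11 lower in RBE at 6 h, and 7 higher and 8 lower in SNU1079. At 16 h 9 were higher and 13 lower in RBE, and 7 higher and 8 lower in SNU1079. The SNU1079 counts at 16 h were near the background of 28.7% higher and 25.8% lower over all genes. In RBE at 16 h the background was 27.3% higher and 26.6% lower. At 6 h it was 11.6% higher and 12.4% lower in RBE, and 14% higher and 14.2% lower in SNU1079. IL11, a cytokine of the IL-6 family, averaged 845 ± 26.4 with YC-1 and 54.4 ± 3.57 with DMSO in RBE at 16 h, and 156 ± 48.8 with YC-1 and 11.4 ± 8.37 with DMSO in SNU1079 (SD, n = 3 each). SNAI1, a repressor linked to epithelial-mesenchymal transition, averaged 58.9 ± 12.7 with YC-1 and 3.07 ± 0.359 with DMSO in RBE at 16 h, and 178 ± 4.56 with YC-1 and 23.6 ± 1.73 with DMSO in SNU1079. IL11 rose by 3.94 ± 0.38 in RBE and 3.91 ± 0.38 in SNU1079, SNAI1 by 3.86 ± 0.30 and 2.87 ± 0.30, and the related SNAI2 by 2.01 ± 0.27 and 1.04 ± 0.27 on the log2 scale (highest adjusted p = 0.0025). HMGA2, an architectural chromatin protein, was lower, at log2 fold changes of -3.10 ± 0.24 and -1.91 ± 0.24 (adjusted p = 1.1e-09 and 1.1e-06).

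**Figure D4:**
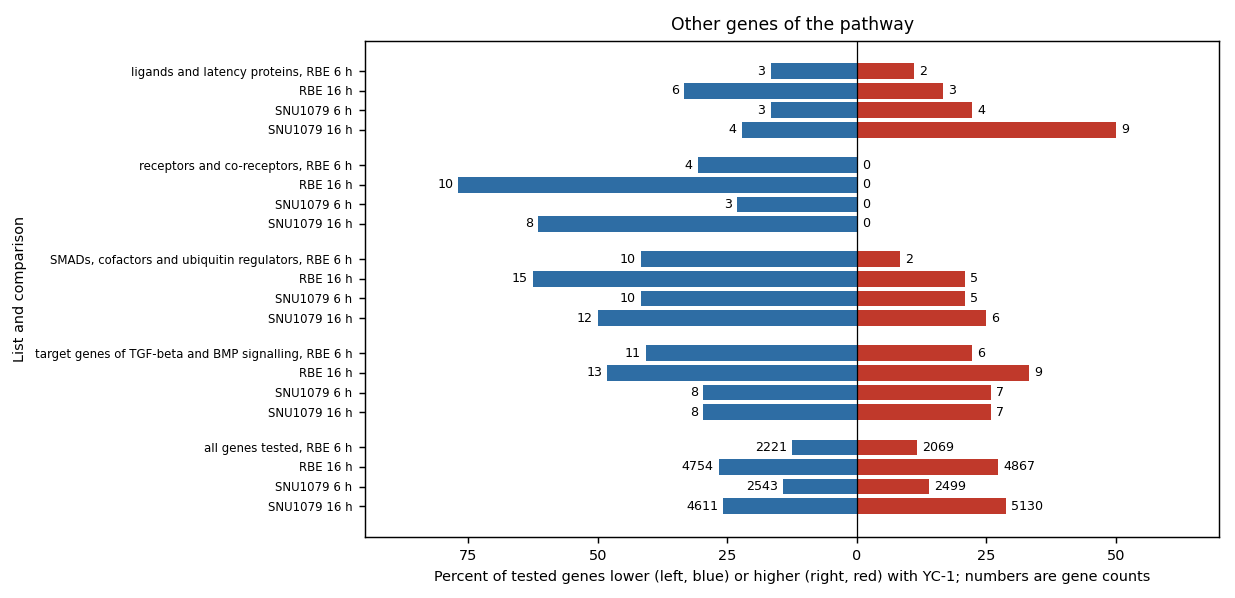
Percent of tested genes called lower (blue, left) or higher (red, right) with YC-1 in each of 4 pathway lists and over all genes tested, with the counts beside the bars. No receptor gene was called higher, and 10 of 13 were called lower in RBE at 16 h.

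The list counts depended on scaling and libraries in some places. With libraries scaled to equal sums, SNU1079 at 16 h had 6 ligand genes higher and 7 lower, and 4 target genes higher and 14 lower. Calls over all genes also moved down under that scaling. Of 17860 genes tested, 3068 were higher and 6599 lower in SNU1079 at 16 h, and 2908 higher and 6475 lower in RBE at 16 h. The list counts were not tested against these shares. Receptor counts under that scaling were 0 higher in every comparison, with 11 lower in RBE and 10 lower in SNU1079 at 16 h. Without the 3 libraries that stood apart, SNU1079 at 6 h had 6 target genes higher and 11 lower, in a fit that called 36.1% of all genes in either direction.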

How the data were processed

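Messenger RNA libraries (TruSeq Stranded mRNA, per the labels' protocols) were aligned with STAR and normalised with DESeq2 on hg38 by the authors, per the submitters' processing notes, which give tool names without versions. How reads were counted, whether by strand, and on which annotation is not given in the sources used here. The deposited signal is a normalised count per gene. Steps of these values varied between genes, so whole reads were not recovered, no count test was run, and the depth is unknown. Times of exposure were read from sample titles and the design text, because the label for time gives 16 h for every DMSO and 6 h for every YC-1 library. A fit with times pooled was therefore an alternative.

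The test was limma 3.58.1 (R 4.3.3), applied to log2(normalised count + 1) of the 17860 of 57820 rows with at least 10 in at least 3 libraries. One mean was fitted per group over 24 libraries (16 residual degrees of freedom, intensity trend, two-sided, Benjamini-Hochberg over all genes tested), for 12 comparisons. The test was checked on simulated data for one comparison, the 6 h effect in RBE. The smallest p that an exact permutation test allows with 3 libraries in each of 2 groups is 0.1. The genes and lists were chosen with earlier results of these data known. Of each list, up to 4 genes are named, those with the largest mean absolute fold change at 16 h among genes called in both lines with a mean of at least 100 in one group. For each member except TGFB1, whose neighbours are not reported here, the 2 genes with the highest Pearson r are named. Coordinates, spans and exon lengths come from GENCODE 29 (GRCh38), and promoter sequences from RefSeq (GRCh38.p14). Alternatives were other pseudocounts, filters, scalings and sample sets, a replicate block and each library left out.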

Additional observations from a re-analysis of the deposited data

Results flagged for a closer look

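The YC-1 effect at both times, or in both lines, differed for the genes given here by a test of the difference itself, with all libraries fitted together (limma, Benjamini-Hochberg over all genes tested). All values are differences of log2 fold changes. In RBE, the effect at 16 h minus that at 6 h was -1.45 for TGFB2, -1.27 for TGFBR2, -2.49 for INHBA, -0.91 for SMAD3 and -0.89 for SMAD7. In SNU1079 it was 0.91 for TGFB1, -0.82 for TGFBR2, -0.69 for SMAD3 and -1.34 for SMAD7. Of these the calls for TGFB1, TGFBR2 and SMAD3 were lost when the 12 SNU1079 libraries were fitted alone (adjusted p = 0.12, 0.052 and 0.090), and that for TGFB1 also with equal sums (0.18) and in 6 fits that left out 1 library. The effect in SNU1079 minus that in RBE was -1.41 for INHBA at 6 h. At 16 h it was 1.01 for TGFB2, 1.53 for INHBA and -0.73 for SMAD7. Among genes of the other lists it was 2.17 for PMEPA1, 1.75 for BMP2, 0.92 for CTGF and -1.29 for BHLHE40 at 16 h. These last 4 were picked after their values were seen, as the list genes called in opposite directions in the 2 lines. The test of their difference therefore adds no separate support. INHBA was the only one of the 10 members called in opposite directions in the lines at 16 h, and its call in RBE rests on single libraries.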

How the results depend on the processing

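The 65 values of single members were refitted 2288 times in all. In 2212 of these the direction and the side of the threshold stayed, in 48 the call was lost, in 14 a call was gained and in 14 the direction turned. TGFBR2, SMAD3, SMAD7 and SMURF2 stayed lower and called, in all 4 comparisons of YC-1 with DMSO, under every alternative run. Directions turned for values that were not called as reported, with one exception: INHBA in RBE at 16 h was 0.70 with times pooled. With times pooled TGFB1 was 0.16 in RBE and 0.34 in SNU1079 at 6 h. SMAD2 in RBE at 16 h was -0.30 with equal sums and -0.17 with equal sums without mitochondrial genes, and TGFBR1 in SNU1079 at 6 h was 0.055 without the 3 libraries that stood apart. Leaving out 1 library, the log2 fold change at 6 h ran from -0.10 to 0.028 for TGFB1 in RBE, from -0.26 to 0.0051 for TGFB1 and from -0.29 to 0.055 for TGFBR1 in SNU1079. At 16 h it ran from -0.019 to 0.056 for SMAD2 in RBE and from -0.27 to 0.049 for TGFBR1 in SNU1079. Counts of members called moved in some fits. The time difference in SNU1079 called 1 in a fit of its 12 libraries, where the share of all genes was 5.5%, in place of 17%. The line difference called 2 at 6 h and 7 at 16 h without the 3 libraries (6.62% and 22.8% of all genes), 0 to 1 at 6 h and 3 to 6 at 16 h leaving out 1 library. DMSO over time in RBE called 1 in a fit of 12 libraries and 1 without the 3 libraries (0.487% and 0.342% of all genes). Of 36 pairs of same-numbered libraries, 4 had a correlation of deviations over 0.1, all of them in SNU1079, and r ran from -0.21 to 0.34. Pairs with different numbers were not compared, so these values cannot decide whether replicate numbers pair the samples. A replicate block within each line gave INHBA in RBE at 16 h an adjusted p of 0.051, ended no other call of a member, and changed the calls over all genes in RBE at 6 h to 4196, in place of 4290. For named genes of the other lists, 1532 of 1572 refits kept the call, 39 lost it, and CTGF in SNU1079 at 16 h turned to -0.0041 with equal sums. The cause of these changes was not tested. Depth is unknown, so no floor could be given for low values.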

Other observations

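PMEPA1, BMP2, CTGF and BHLHE40 were called in opposite directions in the 2 lines at 16 h, and are described after their values were seen. PMEPA1, a membrane protein known as a TGF-beta target that binds SMAD2 and SMAD3, averaged 2766 ± 400 with YC-1 and 1024 ± 39.5 with DMSO in SNU1079, and 6876 ± 196 with YC-1 and 11557 ± 541 with DMSO in RBE (SD, n = 3 each). Its log2 fold change was 1.42 ± 0.13 in SNU1079 and -0.75 ± 0.13 in RBE (SE, adjusted p = 8.8e-09 and 4.3e-05, limma), and both calls also passed at 6 h, at 0.99 and -0.70. BMP2, a BMP ligand, averaged 522 ± 40.1 with YC-1 and 217 ± 21.7 with DMSO in SNU1079, and 26.1 ± 2.09 with YC-1 and 37.6 ± 8.98 with DMSO in RBE. Its rise in SNU1079 was 1.26 ± 0.17 (adjusted p = 2.1e-06), while the RBE value of -0.49 (adjusted p = 0.018) was lost without DMSO replicate 1 or YC-1 replicate 3 of RBE at 16 h (-0.31 and -0.44, adjusted p = 0.14 and 0.061).

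CTGF, a secreted matrix protein, averaged 806 ± 134 with YC-1 and 625 ± 64.5 with DMSO in SNU1079, and 1318 ± 53.0 with YC-1 and 1948 ± 25.3 with DMSO in RBE. Its log2 fold change was 0.36 in SNU1079 and -0.56 in RBE (adjusted p = 0.0074 and 1.4e-04), and in SNU1079 it was -0.0041 with libraries scaled to equal sums. YC-1 and DMSO libraries of CTGF overlapped in SNU1079 at 16 h. The call there was lost with the 12 SNU1079 libraries fitted alone (adjusted p = 0.070) or the 6 compared (0.16). BHLHE40, a transcriptional repressor, averaged 571 ± 98.5 with YC-1 and 722 ± 58.9 with DMSO in SNU1079, and 1844 ± 91.6 with YC-1 and 960.3 ± 39.8 with DMSO in RBE. Its log2 fold change was -0.35 in SNU1079 and 0.94 in RBE (adjusted p = 0.012 and 4.4e-07). The SNU1079 call was lost without YC-1 replicate 2 (-0.22, adjusted p = 0.088) or DMSO replicate 3 (-0.30, adjusted p = 0.055) of that line at 16 h. It was also lost with the 12 SNU1079 libraries fitted alone (adjusted p = 0.082) or the 6 compared (0.17). YC-1 and DMSO libraries of BHLHE40 overlapped there.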
